A study of Homo sapiens with 9 samples.

Results

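Gene deserts are long stretches of the genome without a protein-coding gene. Here they were taken as the 1 Mb bins of chromosomes 1 to 22 of hg19, with under 50% unknown bases, that no protein-coding gene of GENCODE overlapped by any base. They numbered 233 of 2706 autosomal bins and held 228.2 Mb of known bases. They were chosen from the annotation alone, and no ChIP-seq value entered the choice. The other 2473 bins served as the comparison.

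Deserts often lie next to genes of development and of the nervous system, and some carry distant enhancers of the gene beside them. They hold few CpG islands and are mostly late-replicating chromatin. H3K9me3 is the mark of heterochromatin at repeats and silent gene clusters, H3K27me3 is laid down by Polycomb over silent developmental loci, and H3K4me3 marks active and poised starts of transcription. H3R8me2a, asymmetric dimethylation of arginine 8, was the fourth mark.

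The study compared BEAS-2B cells, a virus-immortalised line from normal human bronchial epithelium, as WT and as mdig KO. The mdig gene (also mina53, official symbol RIOX2) encodes a JmjC-domain protein, and CRISPR-Cas9 with a guide to exon 3 removed it. KO and WT both came from colonies of cells that had received the editing plasmid and had been selected with blasticidin, WT being colonies that kept mdig, and both were grown in the same medium with blasticidin. Each of the 4 marks had 1 library per genotype, and the input of WT has no islands here. With 1 library per group no test was possible, and all differences below compare 2 libraries, without a check by replicates.

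An island is a stretch that the authors called enriched in a library. Its position is known but not its height or read depth, so the measure used here is the covered length, the number of bases of a bin that lie under islands. A longer covered length cannot be told from more permissive calling, nor can more marked cells from a stronger mark per cell. The libraries held 6871 to 32264 islands over 52.8 to 341.6 Mb. H3K4me3 islands lay within 2 kb of the starts of KRT8, KRT18, EPCAM and CDH1 in both genotypes, KRT19 had none, and the leukocyte genes PTPRC and CD3E had none. RIOX2 kept H3K4me3 at its start in WT and KO (2.70 and 2.90 kb within 2 kb), which says nothing of the edit in exon 3.

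The deserts were AT-rich. Their median GC content was 35.6% (33.5 to 47.8), against 40.7% for the other bins. All 233 held at least 1 annotated gene that is not protein-coding, 218 held a long noncoding RNA (lncRNA) gene, 207 a pseudogene and 3 an immunoglobulin or T-cell receptor gene, which GENCODE does not class as protein-coding. They formed 167 runs of adjacent bins, of which 119 were single bins, 32 held 2, 14 held 3 and 2 held 4. Chromosome 4 had 30 of them, chromosome 2 had 24 and chromosome 5 had 21. Closest to the limits of the rule were chr6:164000001-165000000, inside, which began 376 bases from QKI, and chr9:44000001-45000000, outside, with 162 bases under a coding gene. By unknown bases they were chr3:90000001-91000000, inside at 49.5%, and chr21:9000001-10000000, outside at 51.1%.

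To show what the bases under gained and lost islands look like, 300-base windows of hg19 were read from the deserts with the most extreme KO minus WT difference in covered length. For H3K27me3 1 window comes from an island found in KO alone and 1 from an island found in WT alone, and for H3K9me3 1 comes from an island found in KO alone, in each case the 300 bases of the longest such island with the most CG. The last window is from an H3K4me3 island at the lncRNA LINC01410, marked in both genotypes. All are given on the plus strand of hg19, 5′ to 3′, and capitals mark each CG dinucleotide.
H3K27me3 KO alone, TMEM132B-TMEM132C, chr12:127910676-127910975: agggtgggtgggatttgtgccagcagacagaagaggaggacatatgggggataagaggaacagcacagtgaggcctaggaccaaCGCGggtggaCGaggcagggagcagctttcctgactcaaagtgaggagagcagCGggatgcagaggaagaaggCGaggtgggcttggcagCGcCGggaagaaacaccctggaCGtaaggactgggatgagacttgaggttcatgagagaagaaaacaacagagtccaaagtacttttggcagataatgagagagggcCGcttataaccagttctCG
H3K27me3 WT alone, IRX1-ADAMTS16, chr5:4537609-4537908: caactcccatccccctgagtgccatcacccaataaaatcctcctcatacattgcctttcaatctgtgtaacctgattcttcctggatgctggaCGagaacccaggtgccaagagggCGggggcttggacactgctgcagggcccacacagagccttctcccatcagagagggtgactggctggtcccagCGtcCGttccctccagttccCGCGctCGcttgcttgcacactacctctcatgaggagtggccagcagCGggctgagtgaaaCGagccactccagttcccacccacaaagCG
H3K9me3 KO alone, PTPRU-ENSG00000289710, chr1:30437658-30437957: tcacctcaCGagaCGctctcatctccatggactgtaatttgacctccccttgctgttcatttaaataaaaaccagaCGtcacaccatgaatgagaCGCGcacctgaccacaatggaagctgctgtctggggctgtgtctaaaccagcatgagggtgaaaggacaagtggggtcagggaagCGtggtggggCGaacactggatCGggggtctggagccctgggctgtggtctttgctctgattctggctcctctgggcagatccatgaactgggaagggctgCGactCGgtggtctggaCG
H3K4me3 in WT and KO, LINC01410, chr9:66458215-66458514: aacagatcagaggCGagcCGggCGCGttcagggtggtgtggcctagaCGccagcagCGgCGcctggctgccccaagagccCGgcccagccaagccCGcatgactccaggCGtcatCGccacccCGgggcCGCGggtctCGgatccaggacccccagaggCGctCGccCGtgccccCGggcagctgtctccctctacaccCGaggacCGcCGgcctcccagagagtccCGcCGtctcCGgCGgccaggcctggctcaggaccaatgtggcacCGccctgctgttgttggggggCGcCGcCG

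The windows held 10 to 30 CG, where the 760439 windows of this length without unknown bases in the deserts had a median of 1, and 25.3% had none. The window at LINC01410, with 30 CG and 73.7% GC, reached a count of CG that 0.0124% of desert windows reach. Of the other 3 windows, none held more than 11 CG, a level that 1.09% of desert windows reached. They were picked for their CG and are not typical of their islands. The genome file does not mark repeats, so whether a window lies in a repeat was not read from it.

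Most of the desert sequence carried none of the 4 marks in either genotype. Bases under no island made up 94.5% of the deserts, at 35.8% GC, while bases under any island had 44.1% GC. In WT, H3K27me3 covered 1.57% of the known bases, H3K9me3 1.04%, H3K4me3 0.106% and H3R8me2a 0.00964%. The same marks covered 10.1%, 2.02%, 3.52% and 2.52% of the other bins. H3K9me3 was thus the mark whose share in WT deserts was nearest to that elsewhere. In 24 deserts no mark had an island in WT, in 16 none had one in KO, and in 6 none had one in either.

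In KO the covered length was longer for H3K9me3, H3K27me3 and H3K4me3. H3K9me3 covered 2366 kb of the deserts in WT against 5320 kb in KO, a ratio of 2.25. H3K27me3 covered 3593 kb in WT against 5519 kb in KO, a ratio of 1.54. H3K4me3 covered 242.6 kb in WT against 389.0 kb in KO, a ratio of 1.60. The remaining mark, H3R8me2a, was nearly absent, with 22 kb in WT against 43.6 kb in KO over all 233 deserts. Its direction was not stable, as the ratio of 1.98 became 0.509 with bins starting at 0.5 Mb and 0.571 with bins of 0.5 Mb.

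With bins of 1 Mb, the deserts differed from the other bins in opposite directions by mark. Their H3K9me3 ratio of 2.25 stood beside 3.77 in the other bins, while their ratios of H3K27me3 (1.54 beside 1.32) and H3K4me3 (1.60 beside 1.15) were the higher ones. The deserts held 4.48% of all H3K9me3 length of the WT library and 2.73% of the KO library. These ratios rest on 2 libraries a mark and the difference between them was not tested. With bins of 2 Mb the H3K27me3 ratio of the 37 deserts was 1.15, below the 1.32 of the other bins of 1 Mb. The ratio of the other bins of 2 Mb was not computed.

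**Figure D1:**
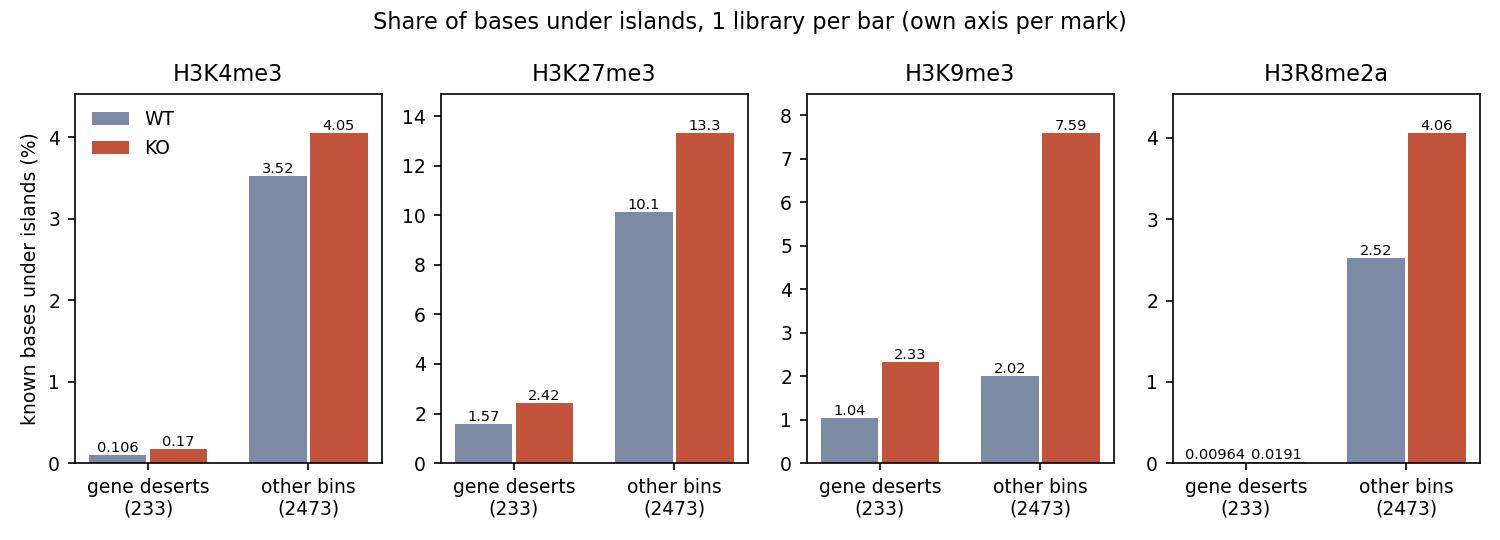
Percent of known bases under islands in WT and KO (y axis, own scale for each mark) in the 233 gene deserts and the 2473 other autosomal bins, 1 library per bar. All 4 marks cover a smaller share of the deserts than of the other bins, and H3K9me3 goes from 1.04% to 2.33% in deserts and from 2.02% to 7.59% elsewhere.

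H3K9me3 was the most widely spread mark. It had an island in at least 1 library in 206 of 233 deserts, and its 10 most covered deserts held 23% of its desert length in WT and 20.6% in KO. The median desert had 5.6 kb in WT against 10.2 kb in KO, beside 10.6 and 43.2 kb in the other bins. KO had more than WT in 169 deserts, less in 35 and the same in 29. Deserts without any H3K9me3 numbered 65 in WT and 41 in KO.

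A desert was called a gain where KO had at least 2 times the WT length and at least 10 kb more, and a loss where WT stood so above KO. For H3K9me3, 73 deserts (31.3%) were gains and 4 (1.72%) losses. Among all autosomal bins 65.9% were gains and 0.517% losses. When both libraries were scaled to the same total covered length, the ratio became 0.609 in deserts, beside 1.02 in the other bins. With that scaling 7 deserts were gains and 54 losses. Scaled calls were not made for the other bins, so these 2 counts have no background. By the scaled ratio the deserts had less of the mark in KO relative to the whole H3K9me3 library, while in bases they had more.

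The largest gain was at chr1:30000001-31000000, between PTPRU, a receptor tyrosine phosphatase, and ENSG00000289710. Its H3K9me3 went from 37 kb in 7 islands to 176.8 kb in 23 islands. It also had the highest GC content of all deserts, 47.8%, and the longest H3K27me3 coverage, with 627.0 kb in WT against 736.6 kb in KO. This desert was thus marked over much of its length in both genotypes.

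The next 4 deserts by H3K9me3 difference lay on chromosomes 7, 3 and 8. Between IGFBP3, which binds insulin-like growth factors, and TNS3, a focal adhesion protein, chr7:46000001-47000000 had 33.8 kb in WT against 142.0 kb in KO. Between CBLB, a ubiquitin ligase that restrains receptor signalling, and the nearer CCDC54, chr3:106000001-107000000 had 11 kb in WT against 102.0 kb in KO. Between the MYC oncogene and GSDMC, chr8:129000001-130000000 had 22.8 kb in WT against 104.4 kb in KO. The fifth, chr7:67000001-68000000 between TYW1 and AUTS2, a nuclear regulator of neural development, had 20.4 kb in WT against 88.4 kb in KO. The first 3 of these had no H3K27me3 island in either genotype, and the last had 173.6 kb of it in WT against 160.2 kb in KO.

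All 4 losses of H3K9me3 lay on the short arm of chromosome 5. The 3 bins of chr5:28000001-31000000, between the cadherins CDH9 and CDH6, formed 1 run. H3K9me3 there had 27 islands over 117.4 kb in WT and 9 islands over 29 kb in KO. Bin by bin the lengths were 64.8 kb in WT against 27 kb in KO, then 18.2 and 2.0 kb, then 34.4 kb and none. The fourth loss, chr5:8000001-9000000 between MTRR and the axon guidance gene SEMA5A, went from 34.8 to 13.4 kb. A neighbour that missed the factor of 2, chr5:25000001-26000000 between the cadherins CDH10 and CDH9, had 62.8 kb in WT against 39 kb in KO.

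Of the 8 deserts of 5p, 6 had less H3K9me3 in KO and 2 had more. Their total was 240.8 kb in WT against 104.8 kb in KO, a ratio of 0.44, whereas the 13 deserts of the long arm had 258.0 and 399.8 kb, a ratio of 1.55. Outside 5p the deserts had 2125 kb in WT against 5216 kb in KO, a ratio of 2.45, with 73 gains and 0 losses. The only other arm with at least 3 deserts and less in KO was 18q, whose 10 deserts had 45.6 and 26.8 kb, a ratio of 0.59. Gene-bearing bins of these arms also stood low. Their ratios were 1.38 on 18q and 1.62 on 5p, the lowest and second lowest of the 39 arms with at least 10 such bins, so the arm moved with the result in deserts and elsewhere. Copy number of the arms was not measured, and its part in the result was not tested.

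**Figure D2:**
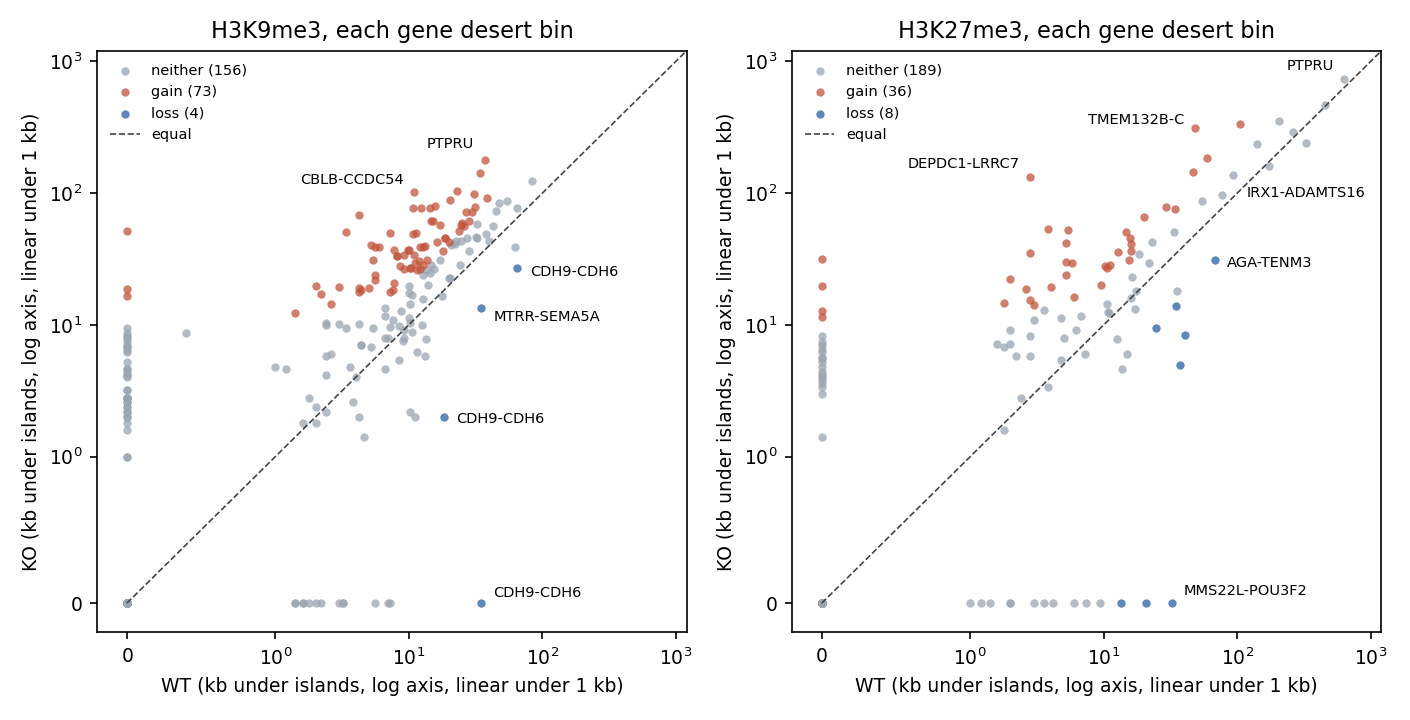
Covered length in WT (x axis, kb) and KO (y axis, kb) of H3K9me3 and H3K27me3, 1 point per gene desert bin, on log axes that are linear under 1 kb. Points above the dashed line have more in KO. For H3K9me3 73 points are gains and 4 are losses, which lie at CDH9-CDH6 and MTRR-SEMA5A, and for H3K27me3 36 are gains and 8 losses.

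The bases that gained and lost H3K9me3 differed in composition. Bases under H3K9me3 in KO alone, 3724 kb, had 45.6% GC and 11.1 CG per kb, close to the 45.9% GC of bases marked in both genotypes. Bases under it in WT alone, 768.8 kb, had 39.7% GC and 6.08 CG per kb, where all desert bases had 36.3% GC and 6.14 CG per kb. Of the bases marked in KO alone, 94.7% lay under none of the 4 marks in WT and 5.2% under H3K27me3. H3K27me3 covered 1.57% of all desert bases in WT.

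The islands of H3K9me3 numbered 723 in WT and 1499 in KO, with mean lengths of 3.28 and 3.56 kb. In the other bins the means were 4.45 and 6.22 kb. Of the WT islands in deserts 75.4% (95% Wilson interval 72.1 to 78.4) had a counterpart in KO, whereas 35.8% (33.4 to 38.2) of those in KO had one in WT. So most WT islands were found again, and most KO islands were not in WT. With 723 islands in WT beside 1499 in KO, a low share in KO follows in part from the counts alone. The intervals cover counting error only. In the other bins 88.4% of WT islands and 30.03% of KO islands overlapped the other genotype.

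Since deserts are AT-rich, their H3K9me3 ratio was set beside that of other bins of like GC content, in classes chosen after the values were seen. In bins under 35% GC the ratio was 1.98 in deserts and 1.95 elsewhere. From 35 to 36% it was 2.34 and 2.78, from 36 to 37% 1.85 and 2.73, and from 37 to 39% 2.26 and 2.50. At 39% and over it was 2.97 in 22 deserts and 4.01 in 1652 other bins. That class has no upper limit, and GC content reached 47.8% in deserts and 59.1% in the other bins, so it does not compare bins of like GC. Most of the other bins thus fell in the class with the highest ratio. In each class from 35 to 39% the ratio of deserts was still the lower one, and under 35% it was not. The deserts of 5p, with a ratio of 0.44, were kept in these classes, and the ratios without them were not computed. They include the losses chr5:28000001-29000000 (34.9% GC, under 35%) and chr5:8000001-9000000 (38.5% GC, from 37 to 39%).

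**Figure D3:**
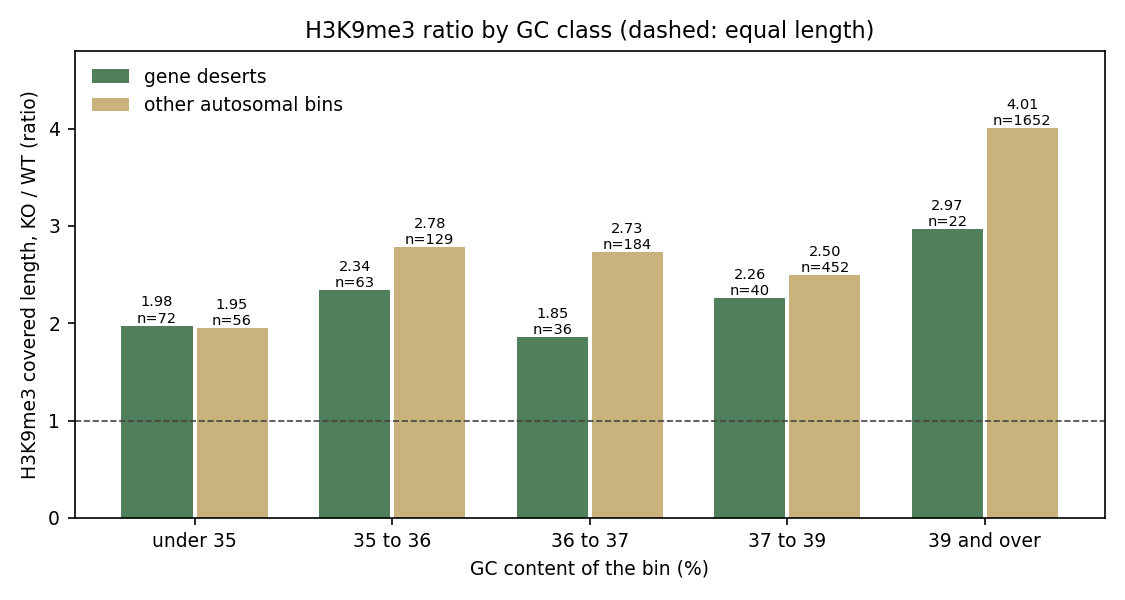
Ratio of H3K9me3 covered length in KO to WT (y axis) for deserts and other autosomal bins in 5 classes of GC content (x axis, percent), with the number of bins above each bar. The bars lie between 1.85 and 4.01, and under 35% GC they stand at 1.98 for deserts and 1.95 for other bins.

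The length of H3K27me3 was concentrated in few deserts. It had islands in 94 deserts in WT and 101 in KO, and its 10 most covered deserts held 68.5% of its desert length in WT and 59.9% in KO. In WT, 5 deserts held more than 50% of it. They included the PTPRU desert, the desert between IRX1 and ADAMTS16 and the desert between ADARB2 and PFKP. Another was chr10:130000001-131000000, between the proliferation marker MKI67 and the DNA repair gene MGMT (453.2 kb in WT, 467.2 kb in KO). The last was the desert of chromosome 14 at the immunoglobulin heavy chain locus (260.0 and 288.2 kb). Deserts with at least 39% GC had 12.8% of their bases under H3K27me3 in WT and 18.3% in KO, against 0.162% and 0.190% in the 72 deserts under 35% GC. Across the 233 deserts the KO minus WT difference and GC content had a Spearman rho of 0.37, a description only, as all points come from the same 2 libraries.

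For H3K27me3, 36 deserts (15.5%) were gains and 8 (3.43%) losses, where all autosomal bins had 18.5% gains and 3.10% losses. The share of gains in deserts was thus near that of all bins. Scaling both libraries to equal total length left the deserts with 26 gains and 12 losses, and scaled calls were not made for the other bins. Of the 36 deserts with a gain of H3K27me3, 8 also had a gain of H3K9me3, where 31.3% of all deserts had one. Joint gains were not counted over all autosomal bins. The KO minus WT differences of these 2 marks had a Spearman rho of -0.01 across the 233 deserts.

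The largest H3K27me3 gain was chr12:127000001-128000000, between TMEM132B and TMEM132C, genes of a family of transmembrane proteins. It had 47.8 kb in 11 islands in WT and 310.4 kb in 36 islands in KO, while its H3K9me3 was 39.6 and 43.4 kb. Between ADARB2 and the phosphofructokinase gene PFKP, chr10:2000001-3000000 had 206.6 and 351.0 kb. The first more than doubled, and the second did not reach the factor of 2.

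In chr1:69000001-70000000, between DEPDC1 and the postsynaptic scaffold gene LRRC7, H3K27me3 went from 2.8 to 132.8 kb and H3K4me3 from none to 11 kb, with H3K9me3 at 17.8 and 16.6 kb. It was the only desert with a gain in both H3K4me3 and H3K27me3. At AUTS2, chr7:68000001-69000000 had 58.8 kb of H3K27me3 in WT against 183.8 kb in KO. Its neighbour chr7:67000001-68000000, in the same run, had a gain of H3K9me3 instead.

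The largest H3K27me3 difference towards WT was at chr5:4000001-5000000, between the homeobox gene IRX1 and the nearer ADAMTS16. It had 326.8 kb in WT against 241.0 kb in KO, which is less than a factor of 2. Between MMS22L and POU3F2, a POU factor of neural development, chr6:98000001-99000000 went from 32.2 kb in 10 islands to none. On chromosome 18, chr18:37000001-38000000 went from 37 to 5.0 kb. The remaining 2 of the 5 lay in 1 run next to TENM3, a teneurin that joins synaptic partners.

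That run, chr4:179000001-183000000 between AGA and TENM3, was 1 of the 2 longest, in a stretch of 4.70 Mb without a coding gene. H3K27me3 went from 24 islands over 118.0 kb to 7 islands over 39.2 kb, while H3K9me3 went from 4 islands over 13.4 kb to 30 islands over 80.0 kb. H3K4me3 went from 3.4 to 13.8 kb. The other run of 4 bins, chr4:58000001-62000000 between IGFBP7 and the latrophilin gene ADGRL3, held little of any mark, with 3.4 kb of H3K9me3 in WT against 12 kb in KO and 5.2 and 29.8 kb of H3K27me3. Among the 14 runs of 3 bins, which tie for the next place, H3K9me3 was longer in KO in 12 and shorter in 2, and H3K27me3 longer in 6 and shorter in 3.

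**Figure D4:**
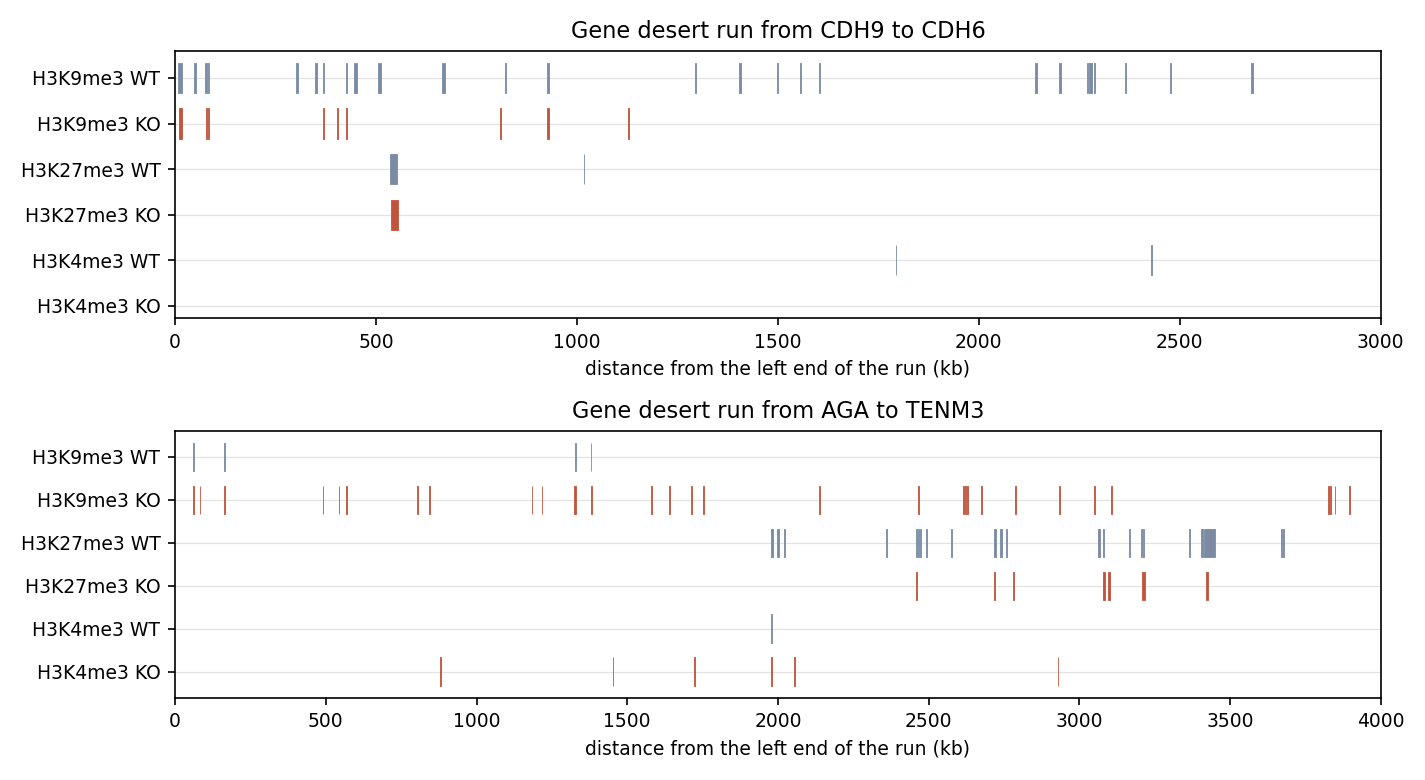
Islands of H3K9me3, H3K27me3 and H3K4me3 in WT and KO along the runs from CDH9 to CDH6 and from AGA to TENM3 (x axis, kb from the left end of the run). Each bar is 1 island drawn to scale. In the first run 27 islands of H3K9me3 in WT stand against 9 in KO, and in the second 4 against 30, with 24 of H3K27me3 in WT against 7 in KO.

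H3K27me3 lay towards the edges of deserts and H3K9me3 did so less. In WT, H3K27me3 covered 7.99% of desert bases within 100 kb of a protein-coding gene and 0.467% of those more than 1000 kb away, and in KO 11.1% and 0.704%. H3K9me3 covered 1.54% and 0.923% at these distances in WT, and 6.28% and 1.96% in KO. Its KO to WT ratio was 4.06 within 100 kb and 2.13 beyond 1000 kb, with 2.43 Mb of known bases in the first class and 65.9 Mb in the last. GC content moved with distance, from 39.7% in the first to 35.4% in the last, and its part was not tested. The classes of distance were chosen after the values were seen.

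**Figure D5:**
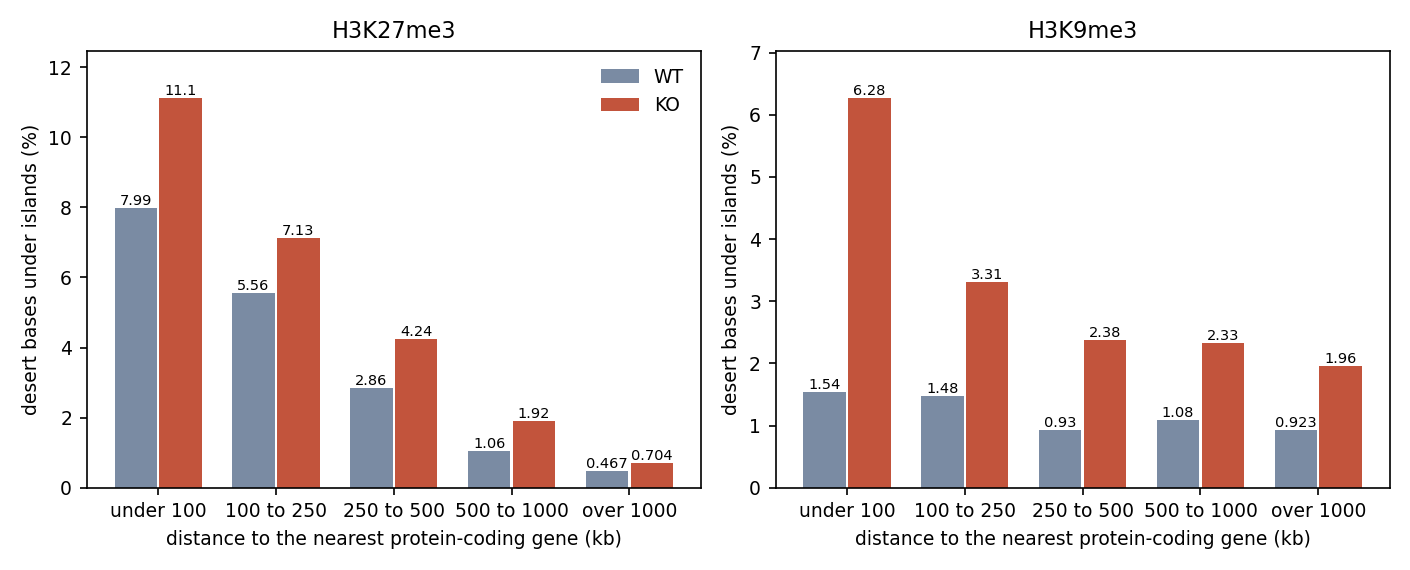
Percent of known desert bases under H3K27me3 and H3K9me3 islands (y axis) in WT and KO by distance to the nearest protein-coding gene (x axis, kb), 1 library per bar. H3K27me3 in WT goes from 7.99% under 100 kb to 0.467% over 1000 kb, and KO is above WT in every class of both marks.

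Deserts were also grouped by the coding genes flanking their run, on either side and at any distance. In 19 runs (20 bins) a flanking gene was on a list of developmental transcription factors, such as IRX1, SOX9 or POU3F2. In 58 runs (96 bins) a flanking gene was on a list of genes of cell adhesion or synapses, such as CDH9, TENM3 or NEGR1. In 90 runs (117 bins) the flanking genes were on neither. The lists go by symbol and are not complete, so LRRC7, ALCAM, ADGRB3 and FAT4, also genes of adhesion or synapses, count under neither. H3K27me3 covered 3.75% of the bases of the first group in WT and 5.71% in KO, 0.638% and 1.01% of the second, and 1.99% and 3.04% of the rest. The bins of the IRX1-ADAMTS16 and GALR1-SALL3 runs held 326.8 and 141.2 kb of the 729.2 kb of the first group in WT. They lay 398 kb from IRX1 and 740 kb from SALL3, and the gene on the other side was nearer in both. The median bin of the first group had 8 kb in WT against 7 kb in KO. The ratios were 1.53, 1.58 and 1.53, but that of the first group was 1.25 to 2.17 when each bin was left out in turn, the highest without the IRX1 bin. H3K9me3 had ratios of 2.37 beside transcription factors, 1.74 beside genes of the adhesion list and 2.53 for the rest. The second value rests on 5p, where 6 of its bins lie, as the group had 584.2 kb in WT against 1309 kb in KO without them, a ratio of 2.24, beside 2.56 and 2.53 for the other groups without 5p. Gains of H3K9me3 made up 20% of the first group, 26.0% of the second, 37.6% of the rest and 31.3% of all deserts. The 4 losses, all on 5p, were in the second group. In the desert beside SOX9, the regulator of cartilage formation, at chr17:69000001-70000000, H3K9me3 was 38.6 kb in WT against 91.8 kb in KO, with no H3K27me3 in either.

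H3K4me3 in deserts came as short islands. They numbered 141 in WT and 191 in KO, with medians of 1.4 and 1.8 kb, against 4.6 and 5.2 kb in the other bins. In WT 73.8% (65.9 to 80.3) overlapped a KO island, and in KO 54.5% (47.4 to 61.4) overlapped a WT island, where the other bins had 93.4% and 91.3%. Bases marked in both genotypes had 18.5 CG per kb and those in KO alone 8.01. Only 25 of those in WT and 22 of those in KO lay within 2 kb of an annotated lncRNA start. One desert (0.429%) was a gain and 1 a loss, where all autosomal bins had 0.887% gains and 0.148% losses. The loss was chr10:110000001-111000000, between the sorting receptor gene SORCS1 and XPNPEP1, where 5 islands over 12.4 kb in WT stood against none in KO.

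The starts of 767 lncRNA genes lay in deserts. H3K4me3 was found within 2 kb of 36 of them in WT (4.69%) and 33 in KO (4.30%), where it was found at 27.6% and 27.9% of all 18372 autosomal lncRNA starts. In 29 it was present in both genotypes, in 7 in WT alone and in 4 in KO alone. The shares in WT alone and KO alone among all autosomal lncRNA starts were 1.37% and 1.64%. Several of these starts share 1 island, so the counts are not of separate islands.

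The widest H3K4me3 at a start found in both genotypes was at LINC01410, on chromosome 9, with 4.4 kb in WT against 7.4 kb in KO, the island from which the last window above was read. LINC02100 had 3.8 and 7.2 kb, MIR924HG 6.4 and 7.0 kb, LINC00882 5.4 and 6.2 kb and LINC01880, which shares its island with LINC01238, 4.4 and 5.8 kb. They were ranked by the wider of the 2 genotypes, so a direction is not read from them. MIR17HG, the host gene of an oncogenic microRNA cluster, had 4.4 kb in WT against 5.0 kb in KO, and was chosen after its values were seen. Of the named lncRNAs with H3K4me3 in 1 genotype, LINC01902 (1.2 kb) and LINC03051 (0.8 kb) had it in WT alone and LINC02267 (0.8 kb) in KO alone, all with islands shorter than the median of the deserts.

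H3R8me2a had 7 islands in deserts in WT and 6 in KO, against 6756 and 9317 in the other bins, and 1 of each overlapped between genotypes, where 71.8% of WT and 52.1% of KO islands did so in the other bins. Bins without any numbered 228 of 233 in WT and 227 in KO. Of the deserts 2 were gains (0.858%) and 0 losses, where all autosomal bins had 15.0% gains and 5.95% losses. One of the gains was the desert between MYC and GSDMC, from none to 13.4 kb. The largest difference towards WT, 6.0 kb to none, was in the desert between ADARB2 and PFKP.

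By any of the 4 marks 101 deserts (43.3%) had a gain, 13 (5.58%) had a loss and 123 (52.8%) had neither. Of all autosomal bins 74.2% had a gain, 9.46% a loss and 22.8% neither. A call needs a difference of at least 10 kb, and every mark covered a smaller share of the deserts than of the other bins. The part of this in the shares was not tested. Within a genotype the marks seldom met. In WT 1.79% of the H3K9me3 length lay under H3K27me3, which covered 1.57% of desert bases, and in KO 6.23%, where H3K27me3 covered 2.42%. H3K4me3 and H3K9me3 overlapped over 11.2 kb in WT against 21.2 kb in KO.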

How the data were processed

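ChIP-seq of 4 histone marks was read from the islands deposited for 8 libraries. Reads of 75 nt were aligned by the authors to hg19 (BWA, version not given in the sources used here), who extended them to 200 bp, down-sampled tags to the smallest sample of a comparison and called islands per library, and the submitters' processing notes name SICER 1.1. The files hold positions only, so depth is unknown. Islands were read on their 200-bp grid. Covered bases per 1 Mb bin were summed with Python 3.11.15 and numpy 2.4.6 on GENCODE 44 mapped to GRCh37, and bedtools 2.31.1 gave the same lengths in all 2706 bins. The code for the calls was checked on simulated islands built to meet or miss the rule, which says nothing of errors in the data. An island belonged to a bin by its midpoint, overlap needed 1 base, and Wilson intervals came from scipy 1.17.1. Figures used matplotlib 3.10.9.

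The bins named are the 5 with the largest and the 5 with the smallest KO minus WT difference of each mark, the longest runs and the bins at the limits of the rule, and of the lncRNAs the widest and those in 1 genotype. Other names are examples chosen after their values were seen. The deserts, the groups of flanking genes and the rules were chosen with earlier results of these data known. Alternatives changed the bins, the limits of the calls, the scaling, the islands and the windows. Some windows of the genome and some bins are not reported here.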

Additional observations from a re-analysis of the deposited data

How the results depend on the processing

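The islands carry no read counts and each group had 1 library, so leaving out replicates was not possible, and depth and signal over background limit every value in an unknown way. No paired analysis was possible because each group had 1 library and no result came from a test. Over 13 alternatives the ratio of covered length in deserts stayed between 1.38 and 1.75 for H3K4me3 and between 1.15 and 1.76 for H3K27me3. The lowest H3K27me3 value, with bins of 2 Mb, lay below the 1.32 of the other bins of 1 Mb. For H3K9me3 the ratio went below 1 only with libraries scaled to the same total length (0.609), and was 2.09 to 2.58 otherwise. That scaling also gave 7 gains and 54 losses of H3K9me3 in deserts, with no such calls for the other bins. The ratio of H3R8me2a rests on 7 and 6 islands. It was 0.509 with bins starting at 0.5 Mb, 0.571 with bins of 0.5 Mb, 1.23 with equal totals, 1.32 without chromosome 20 and 3.11 without chromosome 10, and could not be had with bins of 2 Mb, where WT had no island. With bins starting at 0.5 Mb H3R8me2a had 0 gains. Asking for 1 kb in place of 10 kb gave 48 gains and 13 losses of H3K4me3, 63 and 21 of H3K27me3, 119 and 22 of H3K9me3, and 5 and 5 of H3R8me2a. Asking for 50 kb gave 0 and 0, 6 and 0, 13 and 0, and 0 and 0. Calls at 1 kb and 50 kb were not made for the other bins, so these counts have no background. Without chromosome 5, an alternative added after seeing the data, H3K9me3 had 0 losses. Counting an island as shared only with at least 50% of it covered gave 45.0% of KO islands for H3K27me3, and 70.95% of WT and 29.5% of KO islands for H3K9me3. Leaving out the short end bins or the bins near centromeres, also added later, left every ratio within 1.5 times of its value. No bin was free of genes of every type, so that alternative gave no value. Of 151 alternative values 123 stayed within their limits. Apart from the limits named by construction, the cause was not tested.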

Other observations

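The 14 deserts within 5 Mb of the longest unknown stretch of a chromosome, taken as its centromere, had 1.38% of their known bases under H3K9me3 in WT and 3.69% in KO, while the 219 farther deserts had 1.02% and 2.26%. Without chr7:62000001-63000000, which held 84.2 kb in WT, the shares were 0.737% and 2.90%, so in WT the direction turned. Gains of H3K9me3 numbered 5 of 14 and 68 of 219, where 31.3% of all deserts and 65.9% of all autosomal bins were gains. These classes were set after the values were seen.

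By number of lncRNA genes, also set later, H3K27me3 covered 0.200% of WT bases and 0.824% of KO bases for the 15 deserts without one, 0.303% and 0.510% in the 73 with 1 or 2, and 2.34% and 3.53% in the 145 with 3 or more. H3K9me3 covered 0.952% and 2.63%, 0.678% and 1.69%, and 1.23% and 2.63%. Neither mark went steadily with that number in KO.

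On chromosome 3 the 15 deserts had 75 kb of H3K9me3 in WT against 436.4 kb in KO, a ratio of 5.82. The other bins of chromosome 3 had 6.25, so the high ratio was not particular to its deserts. Desert ratios were higher on chromosomes 14 (7.28), 15 (8.86) and 19 (7.07), with 12, 2 and 1 deserts. Without the desert at the immunoglobulin heavy chain locus, chr14:106000001-107000000, the ratio of chromosome 14 was 3.39. Gains on chromosome 3 numbered 8 of its 15 deserts, all on the long arm. Of all deserts 31.3% and of all autosomal bins 65.9% were gains. Leaving out each desert of chromosome 3 in turn gave ratios of 5.14 to 6.55.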
